A study of Saccharomyces cerevisiae with 59 samples.

Results

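The comparison concerned libraries made from 20 pg and from 1 ng of the same kind of RNA, chosen by the input amount in their titles. It held 18 of the 59 libraries of the series, 10 at 20 pg and 8 at 1 ng. RNA was extracted in bulk from spheroplasts, which are cells whose wall has been digested, of the yeast Saccharomyces cerevisiae, strain S288C. The stock came from a monoclone, and the spheroplasts were kept in medium without amino acids (amino acid starvation, AAS) before harvest; all 18 libraries shared this strain and treatment. Purified RNA was diluted and taken through the single-cell protocol of the study, and the comparison asked how far the profile read from a small amount differs from that of the same kind of RNA at a larger amount. The input was diluted bulk RNA, so no library is the profile of a single cell. The labels do not say whether all libraries came from 1 extract. Nothing in the labels gives separate cultures for the libraries. The p-values therefore rest on the spread between libraries alone, and that spread may be technical.

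In the protocol, oligo-dT primes the cDNA at the poly(A) tail, the cDNA is tailed and copied by many cycles of PCR, and every transcript must therefore be captured before it can be counted. When few molecules enter a reaction, a transcript present in a few copies is either captured and then amplified or lost, and copies made by PCR cannot be told from separate molecules when no molecular identifiers are added. The most abundant messages of yeast encode the enzymes of glycolysis and the proteins of the cytosolic ribosome. Ribosomal proteins are encoded by many short genes, often as a pair of near-identical copies, and their messages are among the shortest of the cell.

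Gene totals ranged from 607907 to 1962394 counts at 20 pg and from 423001 to 2079272 at 1 ng, and 99.95% or more of them fell in protein-coding genes. The mating type read from the data was that of alpha cells. Marker genes of alpha cells held 0.189% to 0.455% of the counts, those of a cells at most 0.0135% and those of sporulation at most 0.0437%. The replicate numbers fell into numbers 1 to 4 and numbers above 4, and the 20 pg libraries of these number sets differed widely in composition, so the main results are also given within each set; the labels do not say what the numbers mark. At 1 ng, replicates 5 and 9 stood apart from the other 6 libraries: the former held 1.94% and the latter 1.79% of its counts in large-subunit ribosomal protein genes, against 3.41% to 4.21%. No pair of libraries of an amount agreed within sampling noise, the closest of 73 pairs having a chi-square of 3.90 per degree of freedom.

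The 20 pg libraries lay farther from the 1 ng profile and from each other. Spearman's correlation of a library with the mean 1 ng profile, computed for a 1 ng library from the other 7, was 0.593 at the lowest, 0.643 at the median and 0.671 at the highest at 20 pg. At 1 ng it was 0.670, 0.877 and 0.908. The groups overlapped only through 1 ng replicate 9, the lowest of its group. The means were 0.638 ± 0.0233 (SD, n = 10) and 0.852 ± 0.0782 (SD, n = 8; exact permutation test, two-sided, adjusted p = 0.000206 over 9 library measures). The test rearranged the finished correlations and did not rebuild the 1 ng reference, so this p-value is approximate. The reference was built from 1 ng libraries, so any difference in mean profile between the amounts lowers the 20 pg values alone. Within number sets the difference was -0.240 for numbers 1 to 4 and -0.185 for numbers above 4. The correlation of a library with the mean of the others of its own amount was 0.612 ± 0.0233 (SD, n = 10) at 20 pg and 0.852 ± 0.0782 (n = 8) at 1 ng, with no overlap (exact permutation test, adjusted p = 0.000206, again without rebuilding the references). Over 45 pairs of 20 pg libraries the median correlation was 0.499, over 80 pairs across the amounts it was 0.611, and over 28 pairs of 1 ng libraries it was 0.878.

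Fewer genes had any count at 20 pg, while the number of genes with 5 counts did not pass the test. With a threshold of 5 counts, 2997 ± 532 genes (SD, n = 10) were detected at 20 pg and 3273 ± 796 (n = 8) at 1 ng (exact permutation test, adjusted p = 0.497). With any count, the numbers were 3613 ± 381 and 4592 ± 454 genes (exact permutation test, adjusted p = 0.000686). At an equal depth of 423001 counts the difference was -28.7 genes for 5 counts (exact permutation test, adjusted p = 0.895) and -851 genes for any count (exact permutation test, adjusted p = 0.000548). Among the genes with any count, those with 1 to 4 counts made up a median of 14.7% at 20 pg and 32.9% at 1 ng. Detection was also counted over all libraries of an amount, where 956 genes had 5 counts in every 20 pg library, against 1811 in every 1 ng library, although 5242 had them in at least 1 of the 20 pg libraries and 5006 in at least 1 of the 1 ng libraries. These counts are over 10 and 8 libraries of unequal depth, and a larger number of libraries by itself lowers the former kind of count and raises the latter.

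Missing values and spread differed between genes of low and high level. Levels are given as CPM, the counts per 1000000 gene counts of a library. Of the 890 genes with a mean of 30 to 100 CPM at 1 ng, 11.2% of the values at 20 pg were without any count, against 0.197% at 1 ng. The median SD between libraries of the log2(CPM + 1) value of these genes was 2.42 at 20 pg and 0.96 at 1 ng, and 95.4% of the genes had the larger SD at 20 pg. For the 124 genes above 1000 CPM no value was missing, the median SDs were 0.58 and 0.31, and 80.6% had the larger SD at 20 pg. At 20 pg the SD was largest, at 2.61, for genes of 10 to 30 CPM, and it was 2.06 for those of 1 to 10 CPM. Computed within the number sets, the SDs of the genes above 1000 CPM were 0.49 and 0.31. Genes of 1 to 10 CPM at 1 ng showed more values of both kinds at 20 pg: at equal depth 22.4% of their values reached 5 counts at 20 pg and 11.4% at 1 ng, while 52.6% and 25.6% of the values at full depth were without any count. The grouping used the 1 ng values.

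**Figure D1:**
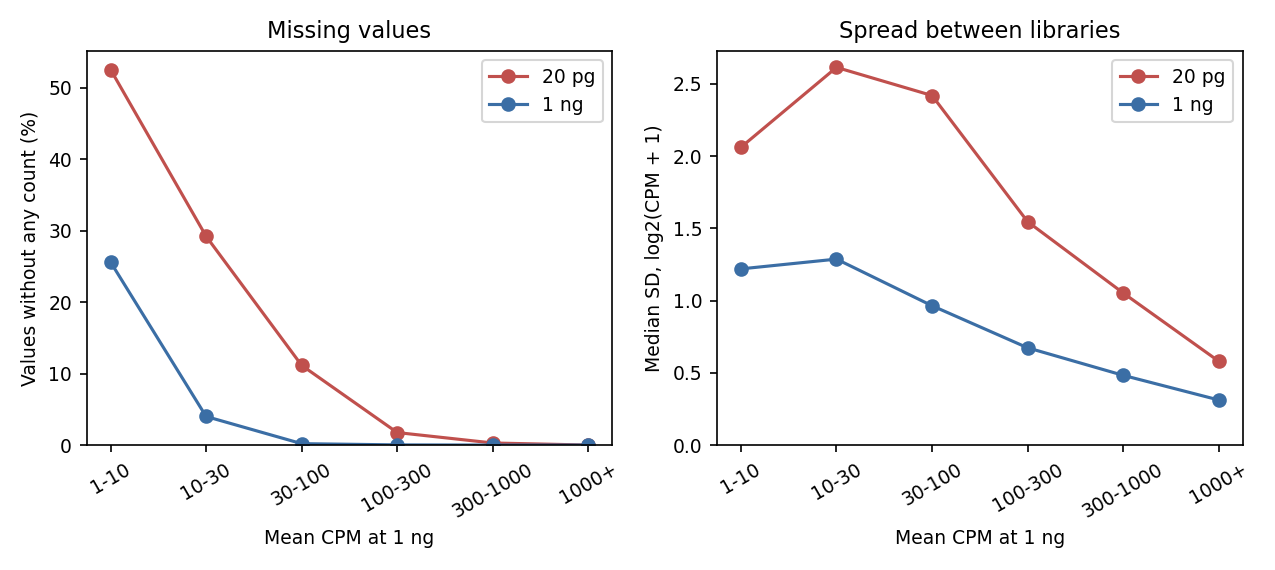
Values without any count (left, % of gene-by-library values) and the median over genes of the SD between libraries of log2(CPM + 1) (right), for genes grouped by their mean CPM at 1 ng; red is 20 pg (n = 10) and blue 1 ng (n = 8). The 20 pg line lies above the 1 ng line in every group for the spread, at 2.42 against 0.96 for genes of 30 to 100 CPM and at 0.58 against 0.31 above 1000 CPM.

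Fewer of the ERCC spike-ins, 92 synthetic transcripts added in proportion to the input, were also detected. At 20 pg 46.0 ± 2.67 (SD, n = 10) spike-ins had 5 counts, and at 1 ng 51.4 ± 3.74 (n = 8), with all 10 libraries below the 1 ng mean (exact permutation test, adjusted p = 0.00632). Within numbers 1 to 4 the difference was -6.50 spike-ins and within numbers above 4 it was -4.83, and neither passed (exact permutation tests, adjusted p = 0.0643 and 0.129). In numbers 1 to 4 the groups did not overlap, at 41 to 46 against 49 to 52. The unadjusted p there was 0.0286, the lowest that the exact permutation test of 4 against 4 libraries can give. Their share of gene and spike-in counts together was 55.6 ± 7.64% (n = 10) and 58.1 ± 11.9% (n = 8), a difference that did not pass the test (exact permutation test, adjusted p = 0.674). Without 1 ng replicates 5 and 9 the difference was -8.53 percentage points (exact permutation test, adjusted p = 0.0375). Leaving them out was a choice made after seeing the data, and they had the lowest spike-in shares at 1 ng, 47.1% and 33.1%.

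Across genes, the fit of edgeR tested 4480 genes and called 194 lower (4.33%) and 8 higher (0.179%) at 20 pg at an adjusted p of 0.05 (quasi-likelihood test, TMM scaling, Benjamini-Hochberg). At an unadjusted p of 0.05 it called 719. The split depended on the tool and its scaling, since DESeq2 called 115 lower and 309 higher, edgeR with DESeq2 size factors 35 lower and 9 higher, and edgeR with library totals 23 lower and 5 higher. Fitted within numbers 1 to 4 alone, edgeR with TMM called 164 lower and 98 higher, and within numbers above 4 alone 35, all of them lower. Leaving out 1 library gave 105 calls without 1 ng replicate 5, 118, 122 and 129 without replicates 3, 4 and 2, and 141 or more without any other, up to 273 without replicate 9. The median log2 fold change over all genes was 0.21 with TMM scaling and 0.84 with DESeq2 size factors in edgeR, and fold changes below are therefore log2 values of 20 pg over 1 ng relative to the median of all tested genes, the adjusted p and the SE being those of the fit before this subtraction. Under all 5 scalings or tools compared (TMM, DESeq2 size factors, library totals and TMMwsp in edgeR, and DESeq2), 18 genes were called lower (0.402%) and 5 higher. The lower genes had a median coding length of 525 nt and 93 of the 194 were under 500 nt, against a median of 1314 nt and 435 of the 4474 tested genes that have a coding length. Only 4 lower genes were 2000 nt or longer. These were named after their values were seen, and were the Hsp90 genes HSC82 and HSP82, ACO1, which encodes aconitase, and RGD1.

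The steepest falls were those of the smallest ribosomal protein genes. RPL41A (YDL184C, chromosome IV, 130407 to 130484, minus strand) and RPL41B (YDL133C-A, chromosome IV, 221724 to 221801, minus strand) encode the smallest protein of the large subunit in a single exon of 78 nt each in the R64 assembly. The reads of the study were longer than 78 nt and reach into flanking sequence, which is not shown. Only uniquely mapped reads were counted, so reads that fit both copies are missing, and the split of counts between the copies is uncertain. The coding sequences of both genes from RefSeq are shown because they differ at only 1 base, in capitals:
RPL41A: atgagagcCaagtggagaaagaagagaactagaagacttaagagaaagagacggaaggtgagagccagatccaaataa
RPL41B: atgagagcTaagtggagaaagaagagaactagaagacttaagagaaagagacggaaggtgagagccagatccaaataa

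At 20 pg RPL41A had 0 CPM at the lowest, 0.723 at the median and 22.9 at the highest. At 1 ng it had 1.92, 418 and 649.8 CPM. Of the 20 pg libraries only replicate 7 lay above any 1 ng library, and that library was replicate 9, at 1.92 CPM. The relative fold change was -8.32 (SE 1.00, n = 10 and 8, edgeR adjusted p = 1.87e-05). RPL41B was without any count in 9 of the 10 libraries at 20 pg and had a median of 72.9 CPM at 1 ng, where replicate 9 was also without any count, and its relative fold change was -9.37 (SE 1.18, edgeR adjusted p = 2.85e-05). With so many empty libraries the size of this fitted value depends on the prior count of the fit.

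RPS30A (YLR287C-A, chromosome XII, 712537 to 713158, minus strand), which encodes a small-subunit protein in 192 nt split by 1 intron, had 0, 1.02 and 8.66 CPM at 20 pg and 4.81, 232.8 and 293.1 CPM at 1 ng (lowest, median and highest). Its relative fold change was -7.54 (SE 0.90, edgeR adjusted p = 1.87e-05), and again only 1 ng replicate 9 lay within the range of the 20 pg libraries. Its copy RPS30B had at most 0.841 CPM at 20 pg and between 0.962 and 30.8 CPM at 1 ng, so the groups did not overlap. RPL43A (YPR043W, chromosome XVI, 654166 to 654847, plus strand, 279 nt of coding sequence) also did not overlap, at 0 to 11.8 CPM (median 1.75) against 13.0 to 170.2 CPM (median 88.8). It fell by 5.75 relative to the median (SE 0.82, edgeR adjusted p = 0.000196). The remaining ribosomal protein genes among the 12 largest falls were RPL43B, RPL37A, RPS10B, RPL40A, RPL42A and RPS26A, with relative fold changes from -5.79 to -4.61 and coding lengths from 267 to 387 nt.

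RPL40A and RPS31 encode ubiquitin joined to a ribosomal protein. RPL40A had 5.12, 21.7 and 91.2 CPM at 20 pg and 15.9, 613.3 and 891.3 CPM at 1 ng. RPS31 had 28.2, 213.7 and 333.0 CPM at 20 pg and 61.6, 1053 and 1463 CPM at 1 ng, and fell by 3.21 (SE 0.53, edgeR adjusted p = 0.00112). In both genes every 1 ng library but replicate 9 lay above every 20 pg library. Replicate 9 had the highest gene total of the 18 libraries.

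Ribosomal protein genes fell as a family. Of the 80 tested genes of the large subunit 54 were called lower (67.5%, against 4.33% of all tested genes) and none higher, and of the 56 of the small subunit 33 were called lower (58.9%) and none higher. All 136 lay below the median of all genes, with medians of -2.35 and -2.27. These counts are those with TMM scaling. Under all 5 scalings or tools 8 of the 80 and 7 of the 56 were called lower, against 0.402% of all tested genes. Over these 5 the median of the large-subunit genes ran from -2.35 to -2.02 and that of the small-subunit genes from -2.27 to -1.84. Only uniquely mapped reads were counted, so reads that fit more than 1 of the nearly identical copies are missing. The value of a single copy is less certain than that of the family. The 7 members of 800 nt or more had a median of -1.01, and 1 of them was called. RPL3, with 1164 nt, had 2350, 3801 and 5213 CPM at 20 pg and 3643, 4046 and 4991 CPM at 1 ng, and its relative fold change of -0.89 did not pass the test (SE 0.33, edgeR adjusted p = 0.304). RPS2, with 765 nt, had a median of 872.5 CPM at 20 pg and 1321 CPM at 1 ng and did not pass either (edgeR adjusted p = 0.0874).

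The share of all gene counts that the family took was measured per library. Large-subunit genes held 1.01% at the lowest, 1.85% at the median and 2.75% at the highest at 20 pg, and 1.79%, 3.50% and 4.21% at 1 ng. The means were 1.92 ± 0.507% (SD, n = 10) and 3.24 ± 0.892% (n = 8), and all 10 libraries lay below the 1 ng mean (exact permutation test, adjusted p = 0.00500 over 8 lists). Small-subunit genes held 0.840 ± 0.283% (n = 10) and 1.69 ± 0.565% (n = 8; exact permutation test, adjusted p = 0.00500). Within numbers 1 to 4 the difference in the large-subunit share was -2.10 percentage points, with no overlap of 4 and 4 libraries. Within numbers above 4 it was -0.682 percentage points, with overlap through 1 ng replicates 5 and 9 (exact permutation test, unadjusted p = 0.238). Without these 2 libraries the pooled difference was -1.79 percentage points. They had been set apart by this same share after the data were seen, so a test without them cannot bear on it.

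**Figure D2:**
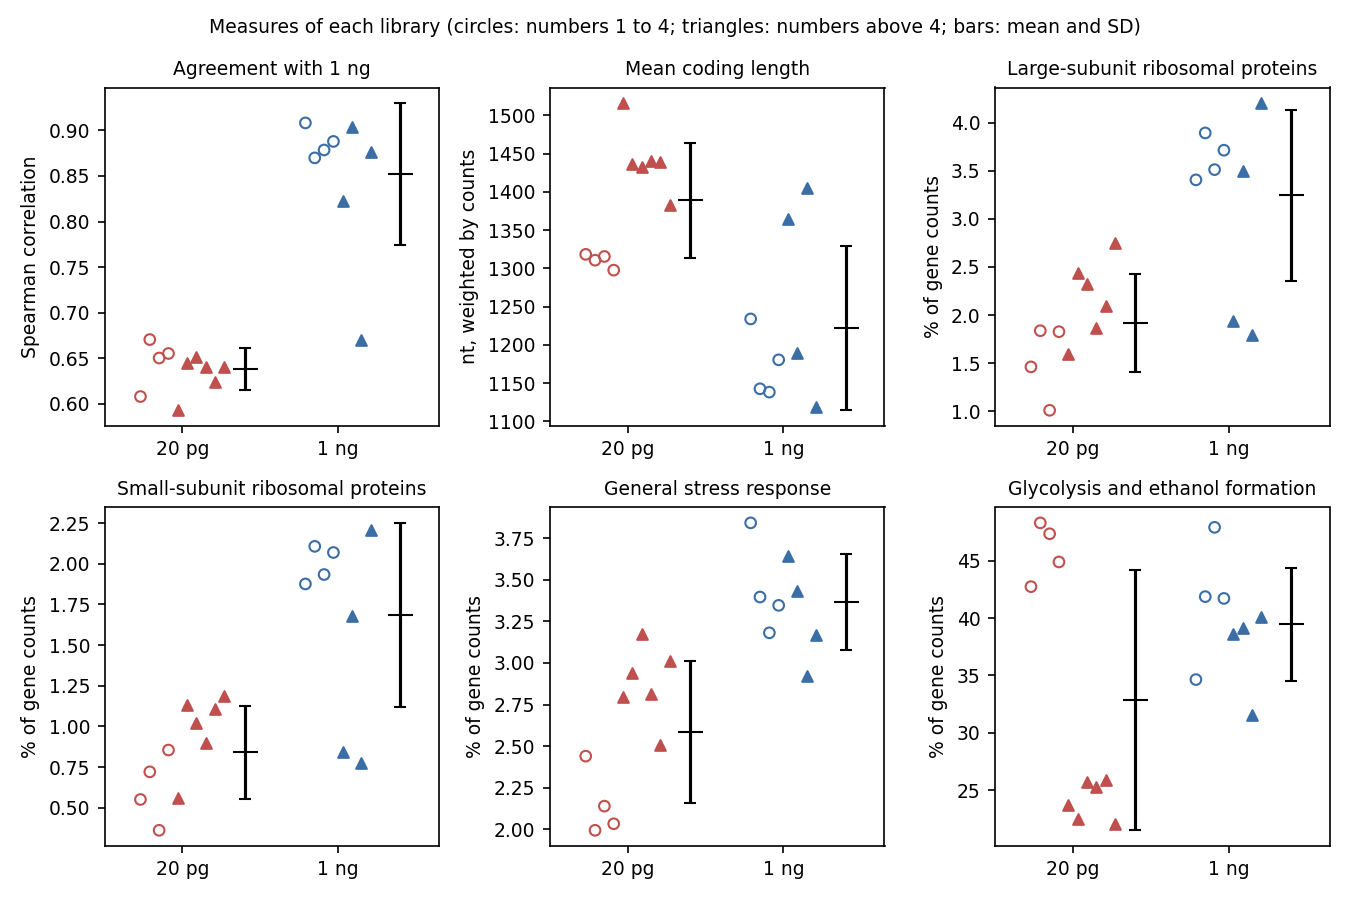
Each point is 1 library at 20 pg (red, n = 10) or 1 ng (blue, n = 8), circles for replicate numbers 1 to 4 and triangles for numbers above 4, with the mean and SD at the right of each group; the panels give the Spearman correlation with the 1 ng profile, the mean coding length weighted by counts in nt, and the share of gene counts in % of 4 gene lists. Ribosomal protein shares lie lower at 20 pg except against the 2 low blue triangles, 1 ng replicates 5 and 9, and the glycolysis share of the 20 pg libraries falls into 42.7% to 48.3% and 22.0% to 25.9% by number set.

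Outside the cytosolic ribosome 19 of 84 genes under 300 nt (22.6%) and 18 of 268 genes from 300 to below 500 nt (6.72%) were called lower, against 4.33% of all tested genes. The sequences of 2 of them are shown as examples of whole coding sequences of the genes called lower under all 5 scalings, with the stop codon in capitals. HOR7 (YMR251W-A, chromosome XIII, 774752 to 774931, plus strand), a gene induced by high osmolarity, has 180 nt, and DPI8 (YJL133C-A, chromosome X, 159623 to 159847, minus strand), named after its values were seen, has 225 nt in R64:
HOR7: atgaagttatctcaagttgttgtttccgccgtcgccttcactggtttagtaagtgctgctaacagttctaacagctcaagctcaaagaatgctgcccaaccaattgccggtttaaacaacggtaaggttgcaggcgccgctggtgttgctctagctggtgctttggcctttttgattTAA
DPI8: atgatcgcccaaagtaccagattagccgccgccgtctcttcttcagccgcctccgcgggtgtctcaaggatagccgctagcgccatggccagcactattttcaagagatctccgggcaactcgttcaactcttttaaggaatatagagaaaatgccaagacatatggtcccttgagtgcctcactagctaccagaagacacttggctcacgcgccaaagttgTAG

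HOR7 had 3.92, 11.97 and 53.0 CPM at 20 pg and 40.4, 134.4 and 205.7 CPM at 1 ng, a relative fold change of -4.04 (SE 0.62, edgeR adjusted p = 0.000494). DPI8 had 29.0, 65.5 and 250.6 CPM at 20 pg and 71.7, 796.1 and 1350 CPM at 1 ng, a relative fold change of -4.09 (SE 0.59, edgeR adjusted p = 0.000290). In both genes 1 ng replicate 9 was the lowest of its group and lay within the 20 pg range. SSS1, with 243 nt, encodes a subunit of the channel that takes proteins into the endoplasmic reticulum, and fell by 4.48 (SE 0.83, edgeR adjusted p = 0.00227). KEI1, with 666 nt, encodes a subunit of the enzyme that makes inositol phosphorylceramide, and fell by 4.54 (SE 1.02, edgeR adjusted p = 0.0117). ATP18, a 180 nt gene for a small subunit of the mitochondrial ATP synthase, was at 0 in 7 of the 10 libraries at 20 pg and between 1.44 and 32.2 CPM at 1 ng (edgeR adjusted p = 0.000880).

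**Figure D3:**
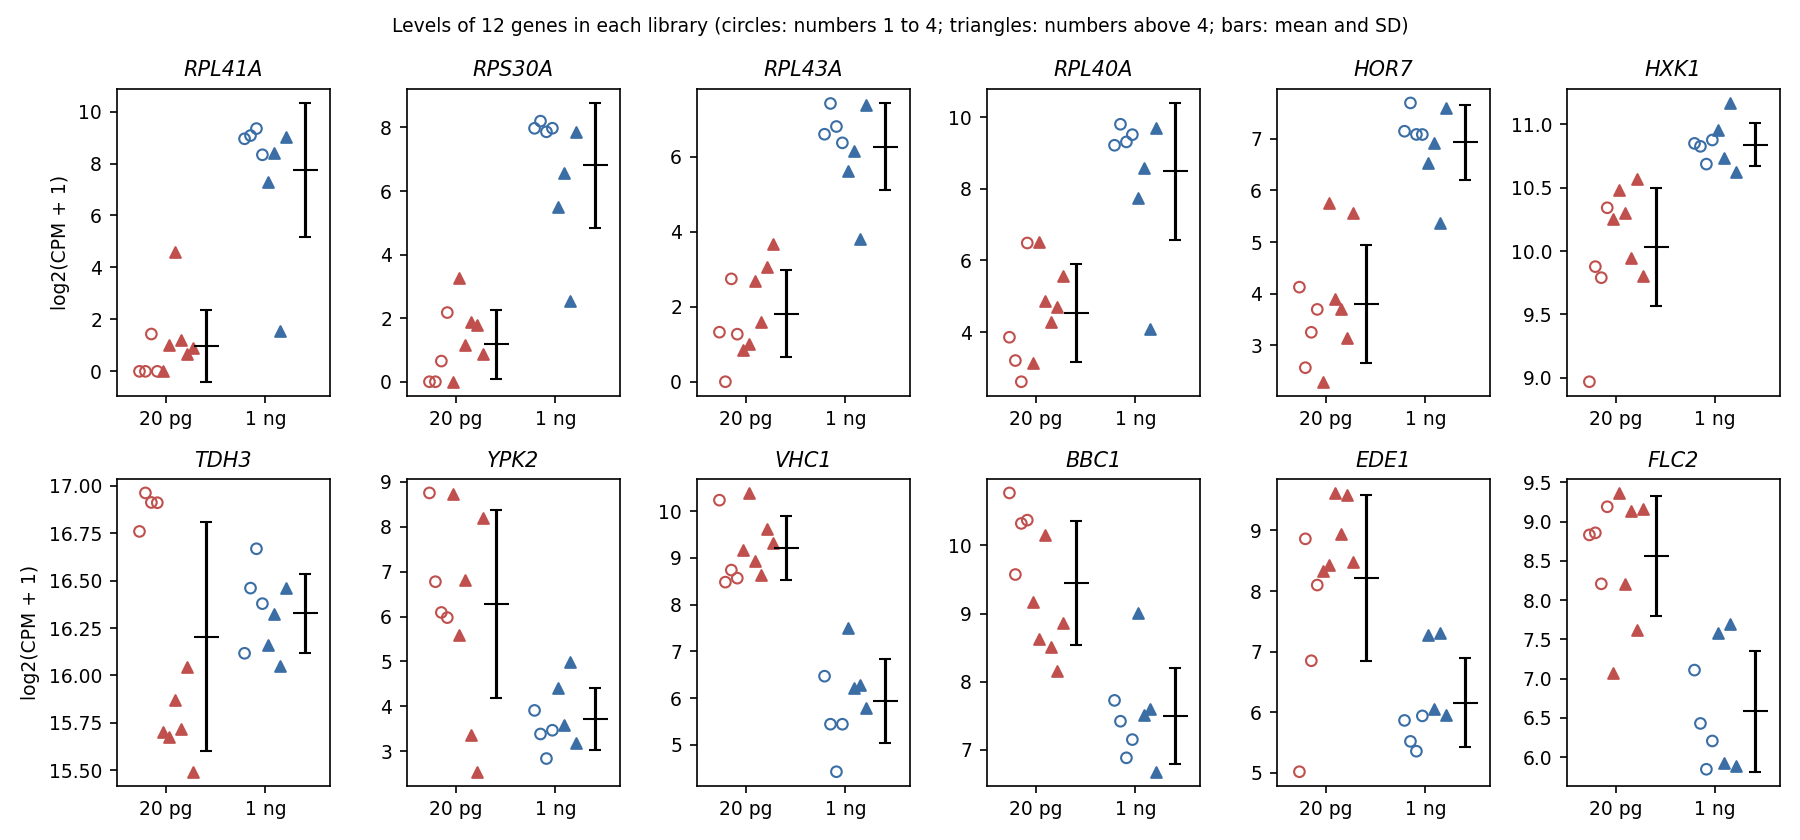
Level of 12 genes as log2(CPM + 1) in each library at 20 pg (red, n = 10) and 1 ng (blue, n = 8), circles for replicate numbers 1 to 4 and triangles for numbers above 4, with the mean and SD at the right of each group. RPL43A and HXK1 lie lower and VHC1 lies higher at 20 pg with no overlap, 1 ng replicate 9 is the low triangle for RPL41A, RPS30A, RPL40A and HOR7, and TDH3 splits by number set at 20 pg.

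Coding length went with the fold change over all genes, as a description across genes, which are not replicates. In the shortest 20% of genes (78 to 714 nt, n = 895) the median relative fold change was -0.81, and 127 genes were called lower (14.2%) and 3 higher. In the middle 20% (1101 to 1536 nt) the median was -0.12, and in the longest 20% (2247 to 14733 nt) it was 0.73, with 1 gene called lower and 4 higher. With the genes in 5 groups of equal size, the order of the groups was the same within numbers 1 to 4, where the medians went from -1.33 to 0.98, and within numbers above 4, where they went from -0.38 to 0.57. It was also the same without the ribosomal protein genes, from -0.57 to 0.73, and in the more and the less abundant 50% of genes, from -1.04 to 0.65 and from -0.47 to 0.78. Spearman's correlation of fold change and coding length over the genes was 0.41.

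Up to 800 nt, ribosomal protein genes lay below other genes of like coding length. Below 300 nt their median was -5.01 (n = 18) and that of other genes -1.51 (n = 84). From 300 to below 500 nt the medians were -2.80 (n = 65, 42 called lower) and -0.79 (n = 268, 18 called lower), and from 500 to below 800 nt they were -1.83 (n = 46) and -0.37 (n = 596). From 800 to below 1300 nt they were -1.01 (n = 7) and -0.32 (n = 1120), and within numbers 1 to 4 the ribosomal protein genes of this length lay above the others, at -0.03 and -0.34. In the 3 shorter groups they lay below the others within each number set. Abundance also moved with the calls, since 132 of the 194 lower genes lay in the most abundant 20% of genes, where the median was -0.70, against medians of -0.10 to 0.49 in the other 4 groups of equal size. The parts of length and abundance in the difference between ribosomal protein genes and other genes were not tested.

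**Figure D4:**
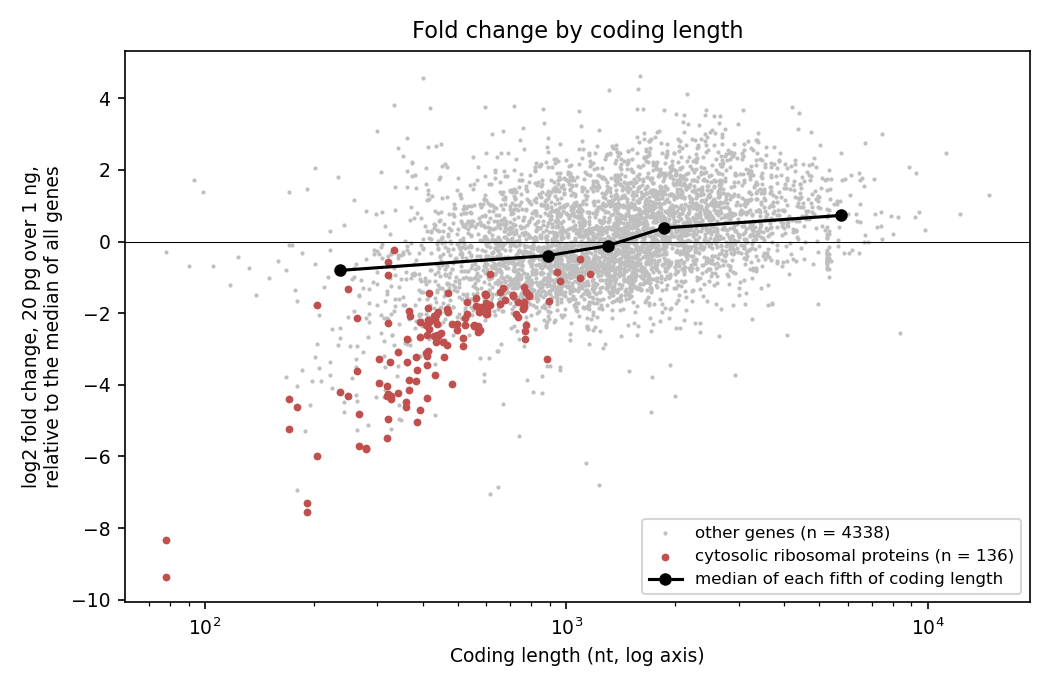
Each point is a gene tested between 20 pg and 1 ng, with its coding length in nt on a log axis and its log2 fold change relative to the median of all genes; ribosomal protein genes are red (n = 136) and other genes grey (n = 4338). The black line joins the medians of 5 equal groups of genes by coding length, which rise from -0.81 to 0.73, and all red points lie below 0, lowest for the 2 genes of 78 nt.

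Measured per library, the mean coding length weighted by counts was 1298 nt at the lowest, 1408 at the median and 1516 at the highest at 20 pg. At 1 ng it was 1119, 1185 and 1405 nt. The means of 1389 ± 74.9 nt (SD, n = 10) and 1222 ± 107 nt (n = 8) differed by 167 nt, with all 10 libraries above the 1 ng mean (exact permutation test, adjusted p = 0.00632). Within numbers 1 to 4 the difference was 137 nt with no overlap, and within numbers above 4 it was 172 nt with overlap through 1 ng replicate 9. Genes over 2000 nt took 12.6 ± 3.33% (n = 10) of the counts at 20 pg and 6.80 ± 3.06% (n = 8) at 1 ng, and genes under 500 nt took 3.44 ± 1.16% and 5.76 ± 2.43%. For the genes under 500 nt the difference was -3.89 percentage points within numbers 1 to 4 and -0.881 within numbers above 4, the latter with overlap. Mean GC content weighted by counts, 44.0 ± 0.992% (n = 10) and 44.4 ± 0.347% (n = 8), did not pass the test (exact permutation test, adjusted p = 0.378), and its difference had opposite signs in the number sets, 0.562 for numbers 1 to 4 and -1.05 for numbers above 4.

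Other complexes made of small proteins had negative medians with fewer calls. Of all tested genes 4.33% were called lower. Outside the cytosolic ribosome 22.6% of genes under 300 nt and 6.72% of those from 300 to below 500 nt were called lower. For subunits of cytochrome oxidase and the bc1 complex (18 tested, median coding length 417 nt) the median was -1.89 and none was called. For ATP synthase (16 tested, 361.5 nt) it was -1.28 and 5 were called lower (31.3%), among them ATP18. For histones (9 tested, 399 nt) the median was -2.19 and 2 were called lower (22.2%), HHT2 and HHF2, which encode copies of histones H3 and H4, the former kept in 9 of the 18 fits that left out 1 library. For the proteasome (33 tested, 867 nt) it was -1.05 and none was called. On the other side, ribosome biogenesis genes (37 tested, 1572 nt) had a median of 0.65, which turned to -0.38 with the replicate number as a block, and very long genes (19 tested, 7413 nt) also had a median of 0.65, and none of either list was called. NOP1, the gene for fibrillarin, which methylates ribosomal RNA, had 10.5, 492.4 and 970.7 CPM at 20 pg and 59.6, 101.4 and 683.9 CPM at 1 ng (edgeR adjusted p = 0.365), so that its range at 20 pg covered that at 1 ng.

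The 8 genes called higher at 20 pg were VHC1, YPK2, EDE1, FLC2, BBC1, SPC25, DIF1 and ADD37, and the first 5 were called under all 5 scalings. VHC1 (YBR235W, chromosome II, 686901 to 690263, plus strand, 3363 nt), which encodes a cation-chloride transporter of the vacuolar membrane, was the only gene to lie higher with no overlap. It had 357, 533.8 and 1342 CPM at 20 pg and 20.5, 64.05 and 179.7 CPM at 1 ng, a relative fold change of 2.48 (SE 0.43, edgeR adjusted p = 0.000475). YPK2 (YMR104C, chromosome XIII, 473420 to 475453, minus strand), a protein kinase gene, had 4.84, 87.9 and 429.9 CPM at 20 pg and 6.16, 10.6 and 30.8 CPM at 1 ng. Its level thus varied among 20 pg libraries, of which replicates 8 and 9 lay below the highest 1 ng library, and its relative fold change was 2.86 (SE 0.77, edgeR adjusted p = 0.0171). These were the only calls of the 8 that were kept when each library in turn was left out. Those of EDE1, FLC2 and BBC1 were kept in 10, 10 and 8 of the 18 such fits and those of SPC25, DIF1 and ADD37 in 4, 8 and 6, and all 6 were lost without any one of 1 ng replicates 1, 2, 3, 4, 7 and 10.

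EDE1 and BBC1 encode proteins of endocytic and actin patches, and FLC2 encodes a membrane protein linked to flavin transport and the cell wall. Their relative fold changes were 1.45 (SE 0.45, edgeR adjusted p = 0.0280), 1.60 (SE 0.51, edgeR adjusted p = 0.0342) and 1.37 (SE 0.44, edgeR adjusted p = 0.0321). BBC1 had a median of 667.0 CPM at 20 pg and 175.5 CPM at 1 ng, and its relative fold change was 3.00 within numbers 1 to 4 and 0.26 within numbers above 4. SPC25, which encodes a kinetochore protein, had 0, 263.1 and 508.6 CPM at 20 pg and 0, 14.4 and 27.9 CPM at 1 ng (edgeR adjusted p = 0.0471). DIF1 and ADD37 fell outside the rule for named genes and are given because the count of higher genes is small. DIF1, whose protein helps place ribonucleotide reductase in the cell, had a median of 16.1 CPM at 20 pg, and 1 library at 1033 CPM decided its mean of 148.0 ± 322.9 CPM (SD, n = 10). ADD37 had a median of 2.23 CPM at 20 pg and was without any count in all 1 ng libraries but replicate 9.

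With VHC1, 12 genes had groups that did not overlap (0.268% of the genes tested), and the other 11 lay lower at 20 pg. Beside RPL43A, RPS30B and ATP18 they were SSB1, GLN1 and HXK1, and, named after their values were seen, RPS29B, GRX2, VMA10, YGK1 and YBL029W. The former 3 were 1113 to 1842 nt long. HXK1, which encodes hexokinase, had 500.3, 1101 and 1517 CPM at 20 pg and 1577, 1828 and 2299 CPM at 1 ng, a relative fold change of -1.60 (SE 0.30, edgeR adjusted p = 0.00653). GLN1, which encodes glutamine synthetase, had 284.8, 523.8 and 812.6 CPM at 20 pg and 817.2, 1031 and 1437 CPM at 1 ng, a relative fold change of -1.82 (SE 0.34, edgeR adjusted p = 0.00534). SSB1, an Hsp70 that binds new chains on the ribosome, had 35.3, 134.7 and 220.1 CPM at 20 pg and 241.6, 323.4 and 400.2 CPM at 1 ng (edgeR adjusted p = 0.0146). Here 1 ng replicate 9 lay with its group, and it was the highest for HXK1. These 3 calls were made under 3 of the 5 scalings. Those of SSB1 and HXK1 were lost without 1 ng replicate 5, and that of SSB1 also without replicates 5 and 9 (edgeR adjusted p = 0.0743).

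Genes of the general stress response, which yeast induces under many stresses, also took a smaller share. General stress genes held 2.58 ± 0.426% (SD, n = 10) of the counts at 20 pg and 3.37 ± 0.288% (n = 8) at 1 ng, with all 10 libraries below the 1 ng mean (exact permutation test, adjusted p = 0.00384). Of the 36 tested, 8 were called lower (22.2%), against 4.33% of all tested genes. The median of the 36 was -0.75, and it turned to 0.25 with the replicate number as a block and to 0.0796 with limma without a covariate. It was -0.20 within numbers 1 to 4 and -0.70 within numbers above 4. HSP12, a small heat shock protein of the membrane encoded in 330 nt, had 297.6, 1933 and 3820 CPM at 20 pg and 345.3, 7083 and 9821 CPM at 1 ng, a relative fold change of -2.61 (SE 0.52, edgeR adjusted p = 0.00618). Its mean was 2038 ± 985 CPM (SD) at 20 pg and 6372 ± 3154 CPM at 1 ng. This 1 short gene thus made up a large part of the difference in the stress share, and the share without it was not computed. PNC1, the nicotinamidase gene, fell by 1.82 (SE 0.31, edgeR adjusted p = 0.00181) and CTT1, the cytosolic catalase gene, by 1.78 (SE 0.39, edgeR adjusted p = 0.0162), a call made under 1 of the 5 scalings and lost without 1 ng replicate 5. Within numbers above 4 the difference in the stress share was -0.418 percentage points and did not pass (exact permutation test, adjusted p = 0.127), and within numbers 1 to 4 it was -1.29 percentage points with no overlap.

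Heat shock proteins and chaperones held 1.21 ± 0.152% (SD, n = 10) and 1.41 ± 0.0978% (n = 8; exact permutation test, adjusted p = 0.00832), and 4 of 18 tested were called lower (22.2%). The difference in this share was -0.319 percentage points within numbers 1 to 4. Within numbers above 4 it was -0.0938 and did not pass (exact permutation test, adjusted p = 0.283), and with the replicate number as a block the adjusted p was 0.05 (exact sign-flip test). Genes for the synthesis of amino acids other than the sulfur-containing ones held 5.25 ± 0.729% (n = 10) and 5.98 ± 0.460% (n = 8; exact permutation test, adjusted p = 0.0424), a call that was lost in 12 of the 18 fits that left out 1 library. Of all tested genes 4.33% were called lower, and of the most abundant 20% of genes 14.7%. Of the 62 tested in this list, 9 were called lower (14.5%). They included GLN1 and BAT1, which encodes the mitochondrial branched-chain aminotransferase and ranged from 43.6 to 998.8 CPM at 20 pg and from 456.8 to 771.4 CPM at 1 ng. Genes for sulfate uptake and sulfur amino acids held 5.45 ± 0.860% and 5.22 ± 0.851% (exact permutation test, adjusted p = 0.571), and none of the 28 tested was called. Their most abundant member MET17, which joins sulfide to O-acetylhomoserine, had medians of 23127 and 22138 CPM. Cell wall genes held 3.92 ± 0.897% and 4.23 ± 0.345% (exact permutation test, adjusted p = 0.423).

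Translation elongation factor genes had a median of -0.93 over 9 tested, of which TEF1 and TEF2 were called lower (22.2%). Of all tested genes 4.33% were called lower, and of the most abundant 20% of genes 14.7%. TEF1 and TEF2 are given by name. Both encode the same protein, and reads that fit both genes were not counted. TEF2 had a median of 1466 CPM at 20 pg and 2625 CPM at 1 ng (relative fold change -1.40, SE 0.35, edgeR adjusted p = 0.0433), and the call was made under 1 of the 5 scalings and kept in 5 of the 18 fits that left out 1 library. Mitochondrial ribosomal protein genes, with a median coding length of 784.5 nt, had a median of -0.15 over 52 tested and none was called. The median of Ty retrotransposon genes was -0.35 over 41 tested, none called, in near-identical copies between which reads cannot be placed with certainty. Alpha-cell marker genes had a median of -0.52 over 4 tested, none called.

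The share of glycolytic genes, the most abundant group, differed between the number sets at 20 pg. They held 32.8 ± 11.3% (SD, n = 10) of the counts at 20 pg and 39.4 ± 4.91% (n = 8) at 1 ng (exact permutation test, adjusted p = 0.190). The 4 libraries of numbers 1 to 4 at 20 pg held 42.7% to 48.3% and the other 6 held 22.0% to 25.9%, on either side of the 1 ng median of 39.6%. The difference between the amounts was 4.29 percentage points within numbers 1 to 4, with overlap, and -13.2 within numbers above 4, with no overlap (exact permutation test, adjusted p = 0.0381). The difference between these differences, tested by rearranging the number sets within each amount, did not pass (exact permutation test, adjusted p = 0.0965 over 17 measures). TDH3, the main glyceraldehyde-3-phosphate dehydrogenase gene, had 110989 to 127779 CPM in the former and 46071 to 67648 CPM in the latter libraries, and 67908 to 104174 CPM at 1 ng. SED1, a major cell wall protein gene, and PDC1, for pyruvate decarboxylase, had 20964 to 25133 and 13125 to 21618 CPM in the former and 8542 to 11828 and 8297 to 11264 CPM in the latter. In the fit over all 18 libraries none of the 10 most abundant genes was called, and of the 21 glycolytic genes PGI1 and HXK1 were called lower (9.52%). Of the most abundant 20% of all genes 14.7% were called lower.

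The subunits of fatty acid synthase differed between the number sets in opposite ways. FAS2, with 5664 nt, had 3728 to 6548 CPM in numbers 1 to 4 at 20 pg and 2130 to 3868 CPM in numbers above 4, and 972.2 to 3871 CPM at 1 ng. FAS1, with 6156 nt, had 1136 to 2255 CPM and 2574 to 5150 CPM, and 1373 to 2128 CPM at 1 ng. Their relative fold changes of 0.65 (SE 0.39, edgeR adjusted p = 0.262) and -0.24 (SE 0.28, edgeR adjusted p = 0.979) did not pass the test. With DESeq2 the relative value of FAS1 turned to 0.0624. Its fold change before subtraction of the DESeq2 median of 0.67 passed (DESeq2 adjusted p = 0.0273), and the relative value itself was not tested.

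Libraries of 10 pg and 10 ng, which share none with the 18, were fitted in the same way. There, 377 of 3820 genes were called lower (9.87%) and 383 higher (10.0%) at 10 pg. Of the 194 genes lower at 20 pg 193 were tested in these libraries, 190 lay below the median, 146 were called lower and none higher, with a median of -3.08. All 18 genes called lower under every scaling at 20 pg were called lower at 10 pg. Of the 8 higher genes 6 were tested, all 6 lay above the median and 4 were called higher: VHC1, YPK2, EDE1 and FLC2. Coding length went with the fold change in these libraries as well, with medians from -1.83 in the shortest to 2.06 in the longest 20% of genes. Spearman's correlation of the relative fold changes over the 3685 genes tested in both was 0.57.

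**Figure D5:**
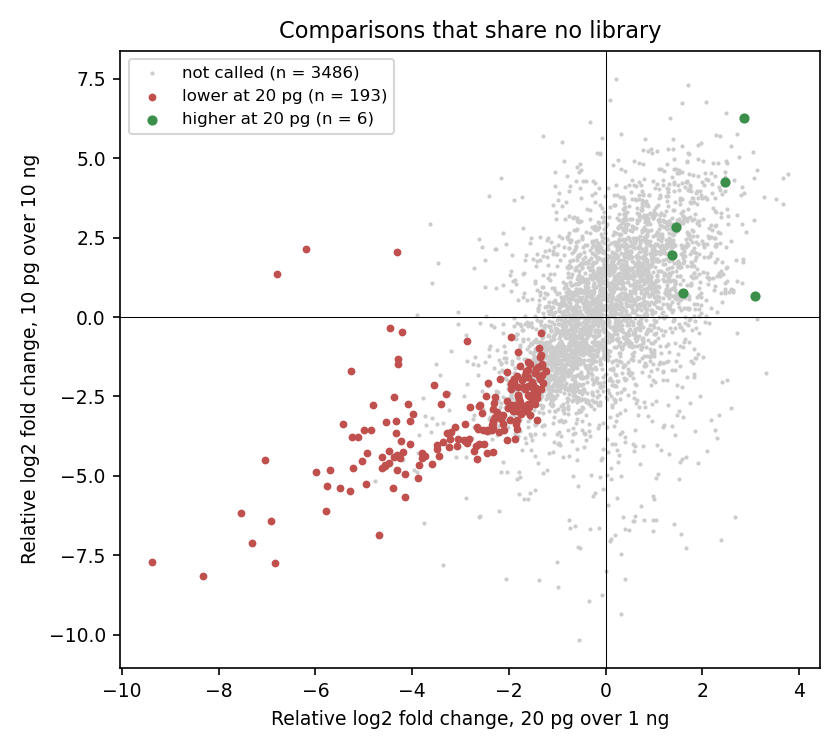
Log2 fold change of each gene relative to the median of all genes for 20 pg over 1 ng (x axis) and, in other libraries, for 10 pg over 10 ng (y axis); red genes were called lower (n = 193) and green genes higher (n = 6) at 20 pg, and grey genes were not called (n = 3486). Of the red genes 190 lie below 0 on the y axis, and all 6 green genes lie above it.

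Over the 6 amounts of the series the levels of RPL41A and RPS30A, taken as examples of short genes, did not fall in step with the input. The amounts of 5, 10 and 20 pg had 10 libraries each, 100 pg had 7, 1 ng had 8 and 10 ng had 9. From the lowest to the highest amount RPL41A averaged 27.9 ± 36.0, 10.7 ± 15.0, 2.84 ± 7.08, 5.37 ± 4.15, 377.2 ± 215.9 and 1295 ± 376 CPM (SD). The means of the 4 lowest amounts lay below those of both highest amounts, and among them the mean was highest at 5 pg, where the SD exceeded it. RPS30A averaged 73.2 ± 123.5, 29.0 ± 39.3, 1.99 ± 2.65, 4.54 ± 3.04, 175.4 ± 110.0 and 635.8 ± 182.6 CPM over the same amounts. VHC1 averaged 1712 ± 2754, 449.9 ± 972.7, 660.0 ± 351.0, 350.1 ± 261.4, 72.2 ± 48.6 and 21.3 ± 15.6 CPM from 5 pg to 10 ng.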

How the data were processed

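Raw counts per gene were the deposited values, 1 library per file. The authors mapped untrimmed reads to R64 (STAR 2.5.2) and counted those mapped uniquely; HTSeq and RSEM 1.2.31 also appear in the submitters' processing notes. ERCC rows and the 5 summary lines, which held 4.42% to 8.04% of the counts of these libraries, were left out. Of 6420 genes 6140 were matched to the R64 annotation and 5980 have a coding length (without UTRs). CPM is counts per 1000000 gene counts.

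edgeR 4.0.16 (TMM, quasi-likelihood, R 4.3.3; checked on simulated data) tested the genes that reached 5 counts in 20% or more of the 18 libraries. The SE was derived from the test. It is the absolute fitted log2 fold change, before the median was subtracted, divided by the square root of the quasi-likelihood F statistic. DESeq2 1.42.0 and limma 3.58.1 were alternatives. Library measures were compared with two-sided exact permutation tests (scipy 1.17.1), adjusted over 9 measures or 8 list shares, the lists being those that hold at least 1% of the counts. For equal depth, libraries were thinned to 423001 counts in 20 draws. Python 3.11.15, numpy 2.4.6, pandas 2.3.3 and matplotlib 3.10.9 were used.

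Named genes were the 12 largest rises and falls called at 0.05 whose relative log2 change was 1 or more and mean log2 CPM 5 or more, with 5 counts in 80% of the libraries of the higher group, up to 6 non-overlapping genes each way, the 10 most abundant genes, and the 4 most abundant and the called members of each list. The lists and members were chosen with earlier results of these data known. The 5 libraries without an input amount in their labels were not used.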

Additional observations from a re-analysis of the deposited data

Results flagged for a closer look

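In a group of 8 or 10 libraries a single library was marked where its gap to the next exceeded 0.526 or 0.466 of the group's range. Chance marks about 1 in 20 groups, and 19 of 134 were marked. At 1 ng, replicate 9 correlated with the rest of its group at 0.670, against 0.822 to 0.908 for the others; this value serves for both correlation measures. At 20 pg, replicate 3 had 2.61 spike-in counts per gene count, against 0.808 to 1.47.

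Among the named genes at 20 pg, replicate 7 was high for RPL41B (1.21 CPM, the others at 0) and RPL41A (22.9 CPM, the others at most 1.71). Replicate 6 was high for RPS30A (8.66 CPM), RPS10B (18.9 CPM), HHF2 (10.2 CPM) and ADD37 (23.4 CPM). Replicate 10 was high for RPS26A (192.6 CPM), replicate 8 for BAT1 (998.8 CPM) and replicate 3 for DIF1 (1033 CPM). At 1 ng, replicate 5 was high for VHC1 (179.7 CPM), BBC1 (515.8 CPM) and RPL3 (4991 CPM) and low for PNC1 (879.9 CPM, the others at least 1969). Replicate 9 was high for NOP1 (683.9 CPM), TEF2 (3999 CPM) and ADD37 (0.962 CPM, the others at 0).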

How the results depend on the processing

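Libraries numbered 1 to 4 gave 4 against 4 values, for which the exact test cannot go below an unadjusted p of 0.0286. The number of genes called between 20 pg and 1 ng, 202, became 44 with DESeq2 size factors (35 lower, 9 higher), 28 with library totals (23 lower, 5 higher), 127 with TMMwsp, 322 without a filter on low counts, 81 with 10 counts in 50% of libraries (56 lower, 25 higher), 424 with DESeq2 (115 lower, 309 higher), 85 and 55 with limma with and without the detection rate (the latter added after seeing the data), 35 (all lower) in numbers above 4 and 262 (164 lower, 98 higher) in numbers 1 to 4. The cause of these differences was not tested. Leaving out 1 library gave 105 (without 1 ng replicate 5) to 273 (without 1 ng replicate 9) calls, and 118, 122 and 129 without 1 ng replicates 3, 4 and 2. For 10 pg against 10 ng it gave 499 to 838. Leaving out both 1 ng libraries that stood apart, a choice made after seeing the data, gave 186 calls (161 lower, 25 higher).

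Whether the replicate numbers pair the samples could not be decided, since no chance level was computed for the values that follow. Same-numbered pairs correlated weakly, from -0.0110 for number 9 to 0.109 for number 5, and 1 of 8 lay above 0.1. Yet 3 of 8 libraries, those numbered 5, 7 and 10, correlated best with their own number. With the number as a replicate block 175 genes were called (172 lower, 3 higher), against 179 in the same 16 libraries without it. Under the block the chaperone share differed by -0.203 percentage points (exact sign-flip test, adjusted p = 0.05), and the medians of ribosome biogenesis, glycolytic and stress genes relative to all genes became -0.38, 0.13 and 0.25. The block changed no other call of a library measure. The stress median was 0.0796 with limma without the covariate. The relative value of FAS1 became 0.0624 with DESeq2, the adjusted p of 0.0273 being that of DESeq2 before the median was subtracted. Named genes that were called kept the call in 953 of 1175 values under alternatives, and none reversed.

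Within numbers 1 to 4 these differences kept their direction and no longer passed after adjustment: -0.240 for the correlation with the 1 ng profile, -0.266 for that within the amount, 137 nt for coding length and -6.50 for detected spike-ins. In each the groups did not overlap, and the exact permutation test gave its lowest possible unadjusted p, 0.0286. Within numbers above 4 the GC content (-1.05), the 10 most abundant genes (-12.6 percentage points, against -6.08 over all) and the glycolysis share (-13.2) passed, and detected spike-ins (-4.83) and the shares of other amino acid genes (-0.336), large (-0.682) and small (-0.391) ribosomal subunits, stress genes (-0.418) and chaperones (-0.0938) did not. Without both 1 ng libraries that stood apart the spike-in share differed by -8.53 and passed, and other amino acid genes (-0.647) did not. Leaving out 1 library gave -0.851 to -0.608 for other amino acid genes. With any count, detected genes differed by -979, and by -851 at equal depth. The longest 20% of genes exceeded the shortest 20% by 1.53 in median fold change, by 2.31 in numbers 1 to 4, 0.95 in numbers above 4, and 2.26 without both libraries.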
